A study of Mus musculus with 12 samples.

Results

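The kinases described here phosphorylate the serine- and arginine-rich (SR) domains of splicing factors or act on the spliceosome itself: *Clk1*, *Clk2*, *Clk3* and *Clk4*, *Srpk1*, *Srpk2* and *Prpf4b*. They were taken as a fixed list of 7 genes, and a splicing cluster was assigned to them where the deposited table names one of these symbols and the cluster had been tested. All 7 genes had a tested cluster. Together they gave 12 of 7263 tested clusters and 43 of 20437 introns, and *Clk1*, *Clk2* and *Clk4* had more than 1 cluster. A further *Prpf4b* cluster was not tested because at most 1 sample passed the coverage minimum.

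The data are 4sU-seq libraries, in which RNA made during 30 min of labelling with 4-thiouridine was purified and sequenced, from female mouse embryonic stem cells of a 129S x Cast background grown on feeder fibroblasts. All cells, controls included, carried FKBP12(F36V) at the C terminus of METTL3 and a doxycycline-inducible *Xist*. The 6 untreated samples (Ctrl) were compared with 6 samples given dTAG-13, which sends the tagged METTL3 to degradation, for 3 h before labelling (dTAG). Both groups drew on 2 clones (C3 and H5), with 3 replicates per clone. The tables pool the 6 samples of a group into 1 fitted value per intron, so values in single samples and clones were not analysed here, the read depth behind each value is unknown and no value has a replicate error. The p-values come from a likelihood-ratio (chi-square) test over the samples, with both clones pooled, and whether the numbered replicates were separate cultures is not stated in the sources used here. *Mettl3* had 2 tested clusters, with a smallest p-value of 0.805, which does not check the labels because dTAG-13 acts on the protein. Of the markers looked up, 8 of 10 embryonic stem cell genes, 1 of 8 feeder fibroblast genes (*Fn1*) and 0 of 8 genes of differentiated cells had a tested cluster, and a tested cluster says only that split reads were found.

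SR proteins bind exons and recruit the spliceosome, and how heavily they are phosphorylated sets where they are and what they can bind. SRPK1 and SRPK2 act mostly in the cytoplasm and prepare SR proteins for import into the nucleus, whereas the CLK kinases phosphorylate them further inside the nucleus and release them from nuclear speckles. PRPF4B (PRP4 kinase) phosphorylates proteins of the tri-snRNP during spliceosome assembly. The CLK genes are known to be alternatively spliced themselves, and skipping of an early coding exon of *Clk1* removes the catalytic domain from the protein.

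In all 4 CLK genes a tested cluster held the same kind of event, a cassette exon that is exon 4 of 13 in the coding transcripts Clk1-201, Clk2-203, Clk3-201 and Clk4-201 of GENCODE vM21. The exons lie at chr1:58420121-58420211 (*Clk1*, minus strand), chr3:89169615-89169702 (*Clk2*, plus strand), chr9:57758627-57758723 (*Clk3*, minus strand) and chr11:51273078-51273168 (*Clk4*, plus strand) of mm10. They measure 91, 88, 97 and 91 nt. *Clk2* has a second acceptor, at which exon 4 of Clk2-202 starts (chr3:89169618-89169702, 85 nt), and none of these lengths is a multiple of 3. The exons are shown because the main comparison turns on them, 5′ to 3′ on the transcribed strand from the mm10 (GRCm38) sequence, with the exon in capitals between 10 bases of the upstream and 6 bases of the downstream intron.
*Clk1*: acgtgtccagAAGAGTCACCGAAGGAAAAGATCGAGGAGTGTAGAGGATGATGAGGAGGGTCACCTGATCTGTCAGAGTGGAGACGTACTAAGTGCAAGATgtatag
*Clk4*: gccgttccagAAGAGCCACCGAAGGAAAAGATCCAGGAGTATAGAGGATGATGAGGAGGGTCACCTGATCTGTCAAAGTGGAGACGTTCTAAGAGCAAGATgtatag
*Clk2*: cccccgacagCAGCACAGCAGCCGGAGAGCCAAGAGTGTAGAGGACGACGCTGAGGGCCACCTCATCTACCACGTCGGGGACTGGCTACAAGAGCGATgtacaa
*Clk3*: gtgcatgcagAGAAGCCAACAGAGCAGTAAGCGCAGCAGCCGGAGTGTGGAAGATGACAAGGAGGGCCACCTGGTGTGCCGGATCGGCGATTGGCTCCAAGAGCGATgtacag

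The *Clk1* and *Clk4* exons were the closest pair, with 85 of 91 aligned bases identical (93.4%) and no gap. The other 5 of the 6 pairs were 60.6% to 67.3% identical over the alignment, gaps included. The authors kept uniquely mapped reads only, and how the likeness of *Clk1* and *Clk4* bears on their counts was not tested. All 4 exons end in GAT, and their donor sites begin with GTATA (*Clk1*, *Clk4*) or GTACA (*Clk2*, *Clk3*). Of 13986 donor sites used by the tested introns, 2.42% begin with one of these 2 strings, and 48.0% begin with GTAAG or GTGAG.

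Joining exon 3 to exon 5 shifts the reading frame in all 4 genes. The joined sequences, spliced from the exons of Clk1-201, Clk2-202, Clk3-201 and Clk4-201, are shown to place the new stop codon, which is in capitals, and each starts 21 bases before the junction.
*Clk1*, exon 3 to exon 5: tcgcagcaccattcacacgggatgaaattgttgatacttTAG
*Clk4*, exon 3 to exon 5: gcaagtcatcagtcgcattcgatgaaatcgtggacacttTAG
*Clk2*, exon 3 to exon 5: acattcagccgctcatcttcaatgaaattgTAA
*Clk3*, exon 3 to exon 5: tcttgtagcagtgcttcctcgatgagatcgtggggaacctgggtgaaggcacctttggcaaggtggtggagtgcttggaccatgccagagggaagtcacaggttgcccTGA
The stop comes 18 nt after the junction in *Clk1* and *Clk4*, 9 nt after it in *Clk2* and 87 nt after it in *Clk3*. Read from the annotated start codon, the open reading frame changes from 483 to 135 codons in *Clk1*, from 499 to 136 in *Clk2*, from 638 to 300 in *Clk3* and from 481 to 134 in *Clk4*. The new stop lies 740 to 818 nt upstream of the last exon junction of these transcripts, and stops in such a position are those that nonsense-mediated decay, the pathway that degrades transcripts with early stops, is known to act on. GENCODE lists the skipping junction in nonsense-mediated decay transcripts of all 4 genes, and in *Clk4* also in the protein-coding transcript Clk4-203. The decay transcripts of *Clk4* with this junction, Clk4-204 and Clk4-212, also hold a 67-nt and a 59-nt exon upstream of exon 4. Clk4-203 also leaves out exon 2 of Clk4-201. The class of these *Clk4* transcripts can therefore not be ascribed to the skipping of exon 4 alone.

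The skipping form was a regular part of the labelled RNA of untreated cells. LeafCutter, the software that the authors used, groups introns with a common splice site as a cluster and gives each intron a percent spliced in (PSI), here a fraction of the split reads of its cluster. The PSI values of a cluster sum to 1, and they measure the use of splice sites and not the amount of RNA of a gene. The skipping PSI in Ctrl was 0.0998 for *Clk1*, 0.168 for *Clk3*, 0.206 for *Clk4* and 0.222 for *Clk2*. Over 2411 clusters of 3 introns that hold a cassette exon, the median skipping PSI in Ctrl was 0.0792. *Clk1* thus had the lowest and *Clk2* the highest skipping PSI of the CLK genes, but the order has no error and neighbours in it cannot be said to differ.

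After METTL3 depletion the skipping PSI was higher in all 4 genes, and in none of them did the cluster pass the test. It was 0.119 in dTAG for *Clk1*, higher by 0.0195. It was 0.221 for *Clk4*, higher by 0.0155. It was 0.265 for *Clk2*, higher by 0.0438. The difference was widest for *Clk3*, where the skipping PSI was 0.260 in dTAG and 0.168 in Ctrl, a deltaPSI (dTAG minus Ctrl) of 0.0917. The p-values of these clusters were 0.239 (*Clk3*), 0.353 (*Clk2*), 0.601 (*Clk4*) and 0.632 (*Clk1*), and the adjusted p-values after Benjamini-Hochberg over all tested clusters were 0.941 to 0.998. The skipping PSI was higher in dTAG in 57.1% of the 2411 cassette clusters, so over all of them a higher value is the more common direction. Among those with a skipping PSI from 0.1 to 0.3 in Ctrl the share was 49.7%. The *Clk2* cluster has 4 introns and is not among these 2411.

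**Figure D1:**
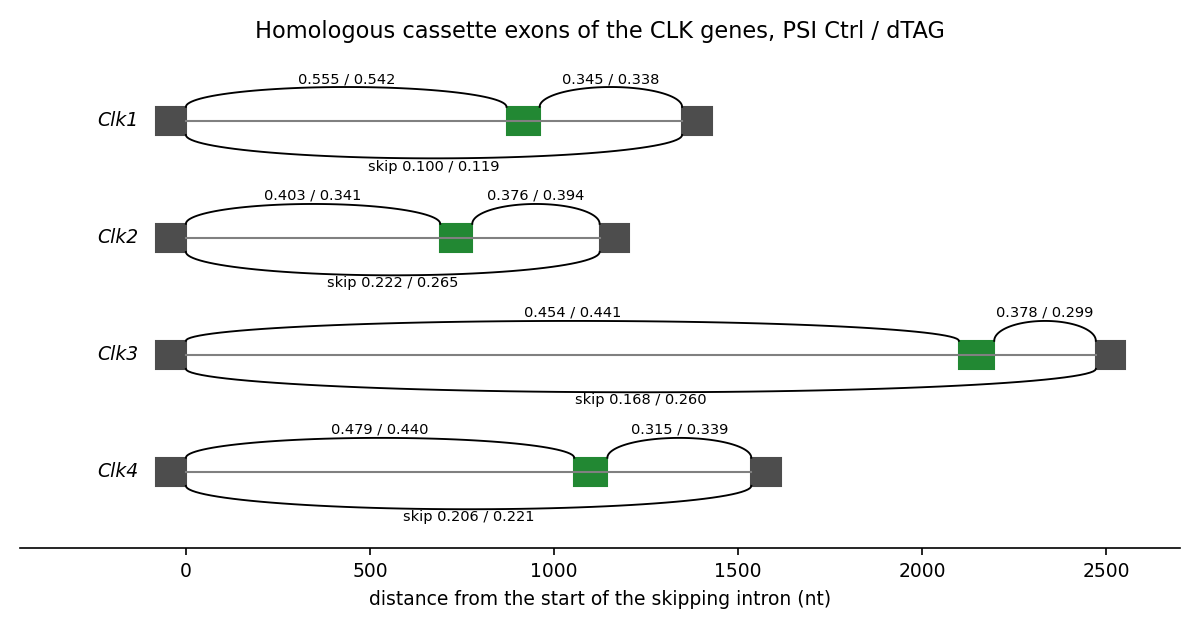
Maps of the 4 CLK exon 4 clusters, drawn to scale along the x-axis in nt from the start of the skipping intron, with the cassette exon in green, and the dark boxes marking the edges of exons 3 and 5 without their length. Arcs are junctions with their PSI in Ctrl and dTAG, and each skipping arc has a higher value in dTAG, from 0.168 to 0.260 in *Clk3*; the 2 acceptors of *Clk2* are summed.

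The size of the *Clk3* difference can be set beside cassette exons with a similar starting point. In 372 clusters with a skipping PSI from 0.1 to 0.3 in Ctrl, the skipping deltaPSI had a median of -0.000563 and quartiles of -0.0244 and 0.0237, and 49.7% were higher in dTAG. A deltaPSI of at least that of *Clk3* was found in 11 of them (2.96%). The *Clk2* value lies above the upper quartile and those of *Clk4* and of *Clk1*, which is just under this range in Ctrl, below it. Among all tested clusters the *Clk3* cluster ranked 414 by its largest absolute deltaPSI and 1845 by its p-value. Without values per sample the spread of the *Clk3* PSI between clones or replicates cannot be given.

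**Figure D2:**
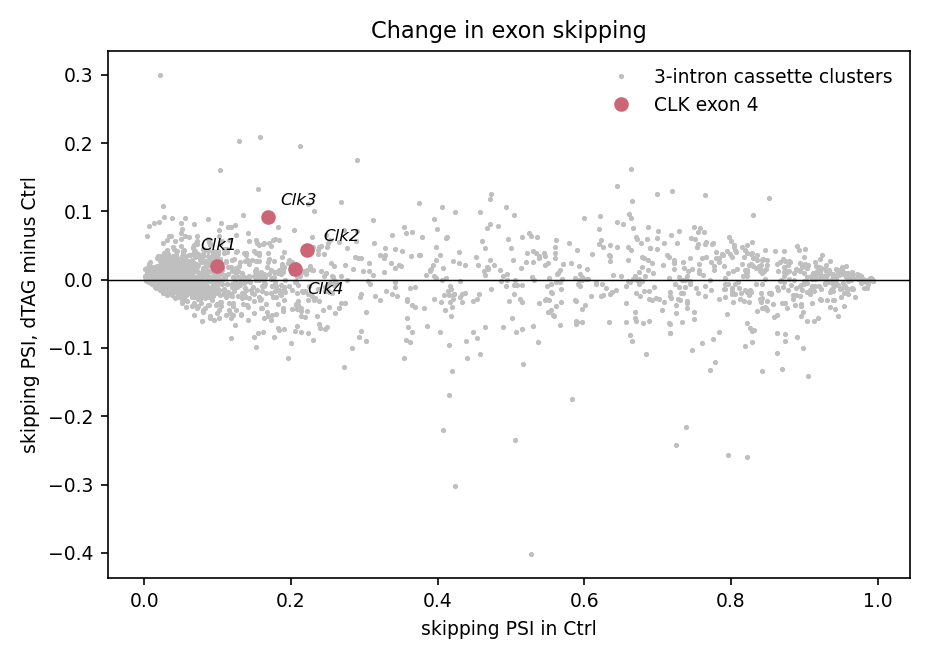
Skipping deltaPSI (y-axis, dTAG minus Ctrl) against the skipping PSI in Ctrl (x-axis) for 2411 clusters of 3 introns with a cassette exon (grey) and the exon 4 of the CLK genes (red). All 4 CLK points lie above 0, and *Clk3*, at 0.0917, lies near the upper edge of the points with a similar PSI in Ctrl.

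The pooled values of the 2 junctions into the exon did not move alike in the 4 genes. They have no error and none of these clusters passed the test, so the genes cannot be said to differ in this. In *Clk3* the upstream junction (intron 3) was at 0.454 in Ctrl and 0.441 in dTAG, and the downstream junction (intron 4) at 0.378 and 0.299, so that most of the difference lay in the downstream junction. In *Clk4* the upstream junction was at 0.479 and 0.440, whereas the downstream junction was higher in dTAG, at 0.315 and 0.339. *Clk2* had the pattern of *Clk4*, with 0.403 and 0.341 upstream, summed over its 2 acceptors, and 0.376 and 0.394 downstream. In *Clk1* both were slightly lower in dTAG, at 0.555 and 0.542 upstream and 0.345 and 0.338 downstream. In Ctrl the upstream junction had the higher PSI in all 4 genes, by a ratio of 1.61 in *Clk1*, 1.52 in *Clk4*, 1.20 in *Clk3* and 1.07 in *Clk2*. The upstream junction had the higher PSI in 39.7% of the 2411 cassette clusters, where the median ratio was 0.873.

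**Figure D3:**
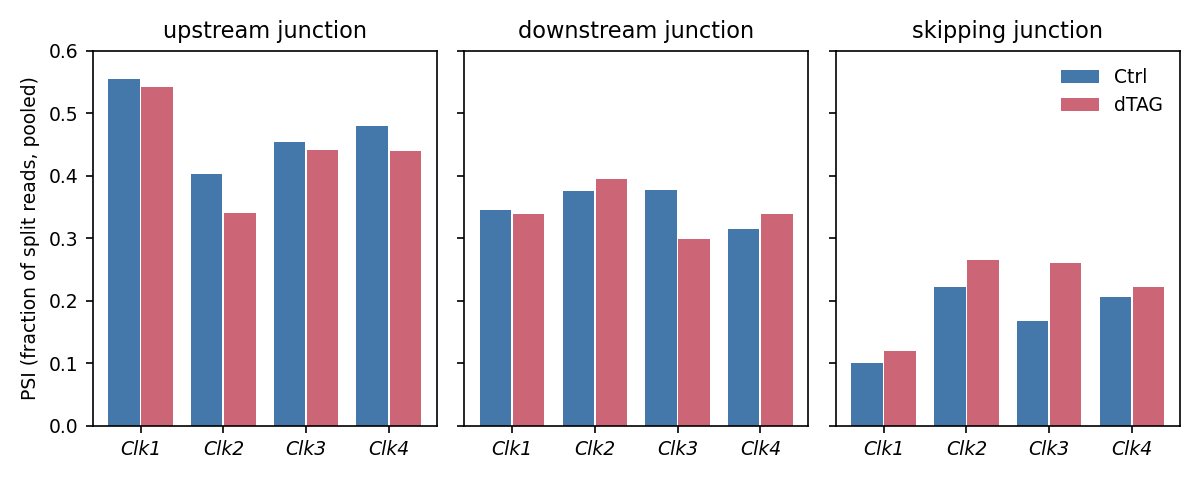
PSI (y-axis, fraction of split reads, pooled over the samples of a group) of the upstream, downstream and skipping junctions of exon 4 in Ctrl (blue) and dTAG (red), without error bars because each bar is 1 pooled value. The skipping bars are higher in dTAG in all 4 genes, while the downstream junction is lower in dTAG in *Clk1* and *Clk3* and higher in *Clk2* and *Clk4*.

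Expressed as inclusion, the mean of the junctions into the exon over that mean plus the skipping PSI, exon 4 of *Clk1* was at 0.819 in Ctrl and 0.787 in dTAG. That of *Clk2* was at 0.637 and 0.581. That of *Clk3* was at 0.712 and 0.587, a difference of -0.125, and that of *Clk4* at 0.659 and 0.638. Taken from the upstream junction alone the *Clk3* difference was -0.100, and from the downstream junction alone -0.157. For *Clk4* the downstream junction alone gave -6.85e-05, so the small difference in this gene rests on the upstream junction.

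*Clk2* chooses between acceptors 3 nt apart at exon 4 and also at exon 3. Such tandem acceptors, NAGNAG motifs, add or leave out a single codon. They are shown with the 3 bases between the acceptors in capitals, from chr3:89168675-89168706 and chr3:89169595-89169626.
*Clk2*, exon 3: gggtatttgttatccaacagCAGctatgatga
*Clk2*, exon 4: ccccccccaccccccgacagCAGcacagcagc
At exon 3 the first acceptor was used at a PSI of 0.863 in Ctrl and 0.826 in dTAG, and the second at 0.137 and 0.174 (chi-square p = 0.289, adjusted p = 0.972, Benjamini-Hochberg). At exon 4 the first was at 0.247 and 0.229 and the second at 0.156 and 0.111, the latter being the larger difference of the cluster, at -0.0449. The second acceptor thus had a higher PSI in dTAG at exon 3 and a lower PSI in dTAG at exon 4, and neither cluster passed the test.

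A further exon of equal length in both genes, the 167-nt exon 7, was a cassette in *Clk1* (chr1:58417013-58417179) and *Clk2* (chr3:89173377-89173543), with 110 of 167 bases identical. Skipping it would leave open reading frames of 223 codons in *Clk1* and 225 in *Clk2*, with the stop 469 nt upstream of the last junction in both. In *Clk1* its skipping PSI was 0.0262 in Ctrl and 0.0244 in dTAG, on a junction that GENCODE lists in the decay transcript Clk1-211. That transcript also holds the junction that skips exon 4, so its class cannot be ascribed to the skipping of exon 7 alone. In *Clk2* it was 0.0284 and 0.0530, on a junction in neither GENCODE nor RefSeq, and this is the highest PSI of any intron of these genes that was in neither annotation. The *Clk2* cluster had a p-value of 0.368 and an adjusted p of 0.981 (Benjamini-Hochberg). The share of skipping was thus alike in untreated cells, and the values in dTAG lay on either side of those in Ctrl. No cassette of exon 7 was tested in *Clk3* or *Clk4*.

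The other differences in *Clk1* were within its exon 7 cluster, where intron 6, of 87 nt, was at 0.631 in Ctrl and 0.680 in dTAG and intron 7 at 0.332 and 0.285 (chi-square p = 0.473, adjusted p = 0.987, Benjamini-Hochberg). These are the 2 junctions on either side of exon 7, and a rare acceptor 30 nt away from that of intron 7 was at 0.0106 and 0.0102. Another *Clk1* cluster held intron 10, at 0.996 and 0.995, and an acceptor in neither annotation 115 nt away from it, at 0.00414 and 0.00545 (chi-square p = 0.507).

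The 5′ part of *Clk4* was the most complex region among the CLK genes and had almost the same values in Ctrl and dTAG. Its cluster of 7 introns spans chr11:51263270-51271799 and had a p-value of 0.998. Exon 2 of Clk4-201, which is 161 nt long, was joined to exon 1 at a PSI of 0.372 in Ctrl and 0.364 in dTAG, the widest difference of the cluster at -0.00737. The junction that skips it, listed in Clk4-203, was at 0.0206 and 0.0212. Exon 2 was joined straight to the next coding exon at 0.272 and 0.276. It was joined to a 59-nt exon of decay transcripts at 0.0994 and 0.0937, on a junction that only RefSeq lists, and to a 67-nt exon at 0.0359 and 0.0393. The 59-nt exon was joined to the coding exon at 0.187 and 0.192, and the 67-nt exon to the 59-nt exon at 0.0134 and 0.0136. GENCODE lists the 59-nt exon only in decay transcripts, whereas the 67-nt exon is also a coding exon of the protein-coding transcript Clk4-205. Part of the *Clk4* RNA in both groups therefore held an exon listed only in decay transcripts upstream of exon 4.

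*Srpk1* had a cluster of 7 introns around the 26-nt exon 9 (chr17:28600869-28600894) and the 214-nt exon 10 (chr17:28600243-28600456) of Srpk1-204. The 3 introns that include both exons carried most of the split reads, at 0.272 in Ctrl and 0.263 in dTAG (intron 8), 0.329 and 0.323 (intron 9), and 0.363 and 0.383 (intron 10). Skipping of exon 10 alone, listed in the decay transcript Srpk1-201, was at 0.0157 and 0.0123. Skipping of exon 9 alone was at 0.00850 and 0.00736, and skipping of both at 0.00629 and 0.00493. Loss of either exon alone would shorten the open reading frame from 648 to 287 or 251 codons, whereas loss of both keeps the frame and leaves 568 codons. The 3 skipping junctions had lower values in dTAG, with a widest difference of -0.00337, and the cluster had a p-value of 0.720 (chi-square). For exon 4 of the CLK genes the skipping values were higher in dTAG. No value has an error and none of these clusters passed the test, so the genes cannot be said to differ in this.

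The last *Srpk1* intron of the cluster used an acceptor 3 nt further on, at 0.00489 in Ctrl and 0.00570 in dTAG. The site is shown because its second acceptor is in neither annotation, with the 3 bases in capitals, from the minus strand of chr17:28599858-28599889.
*Srpk1*, exon 11: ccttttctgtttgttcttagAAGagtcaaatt

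*Srpk2* had 1 tested cluster, a choice between 2 donors 27 nt apart that share an acceptor (chr5:23526816-23527923). It is shown because the 2 forms were used almost equally, from the minus strand of chr5:23527888-23527932 with the bases between the donors in capitals.
*Srpk2*, donors: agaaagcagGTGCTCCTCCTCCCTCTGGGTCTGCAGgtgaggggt
The downstream donor, which is that of intron 7 of Srpk2-201, was used at a PSI of 0.452 in Ctrl and 0.441 in dTAG. The upstream donor, listed by RefSeq but not in GENCODE vM21, was used at 0.548 and 0.559, and it leaves out 9 codons and keeps the frame (673 codons in place of 682). The 2 forms differed by 0.0116 between the groups (chi-square p = 0.879).

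*Prpf4b* had a cassette exon that few split reads of its cluster used in either group. This 106-nt exon (chr13:34893317-34893422), listed in the decay transcript Prpf4b-203, is shown with the exon in capitals between 10 bases of the upstream and 6 of the downstream intron.
*Prpf4b*, cassette exon: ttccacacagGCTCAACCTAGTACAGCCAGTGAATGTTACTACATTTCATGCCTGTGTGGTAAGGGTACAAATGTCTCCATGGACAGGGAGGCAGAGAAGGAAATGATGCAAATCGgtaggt
Including it in Prpf4b-201 would shorten the open reading frame from 1007 to 701 codons. The skipping junction, intron 7 of Prpf4b-201, was at 0.929 in Ctrl and 0.925 in dTAG. The junctions into the exon were at 0.0288 and 0.0293 and at 0.0423 and 0.0462 (chi-square p = 0.953). Including this *Prpf4b* exon thus shortens the reading frame, whereas for exon 4 of the CLK genes skipping does so. The contrast is limited to these exons. *Clk4* also has a 59-nt exon that GENCODE lists only in decay transcripts. The skipping junction of *Prpf4b* is itself listed in both decay and protein-coding transcripts. Decay was not measured.

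**Figure D4:**
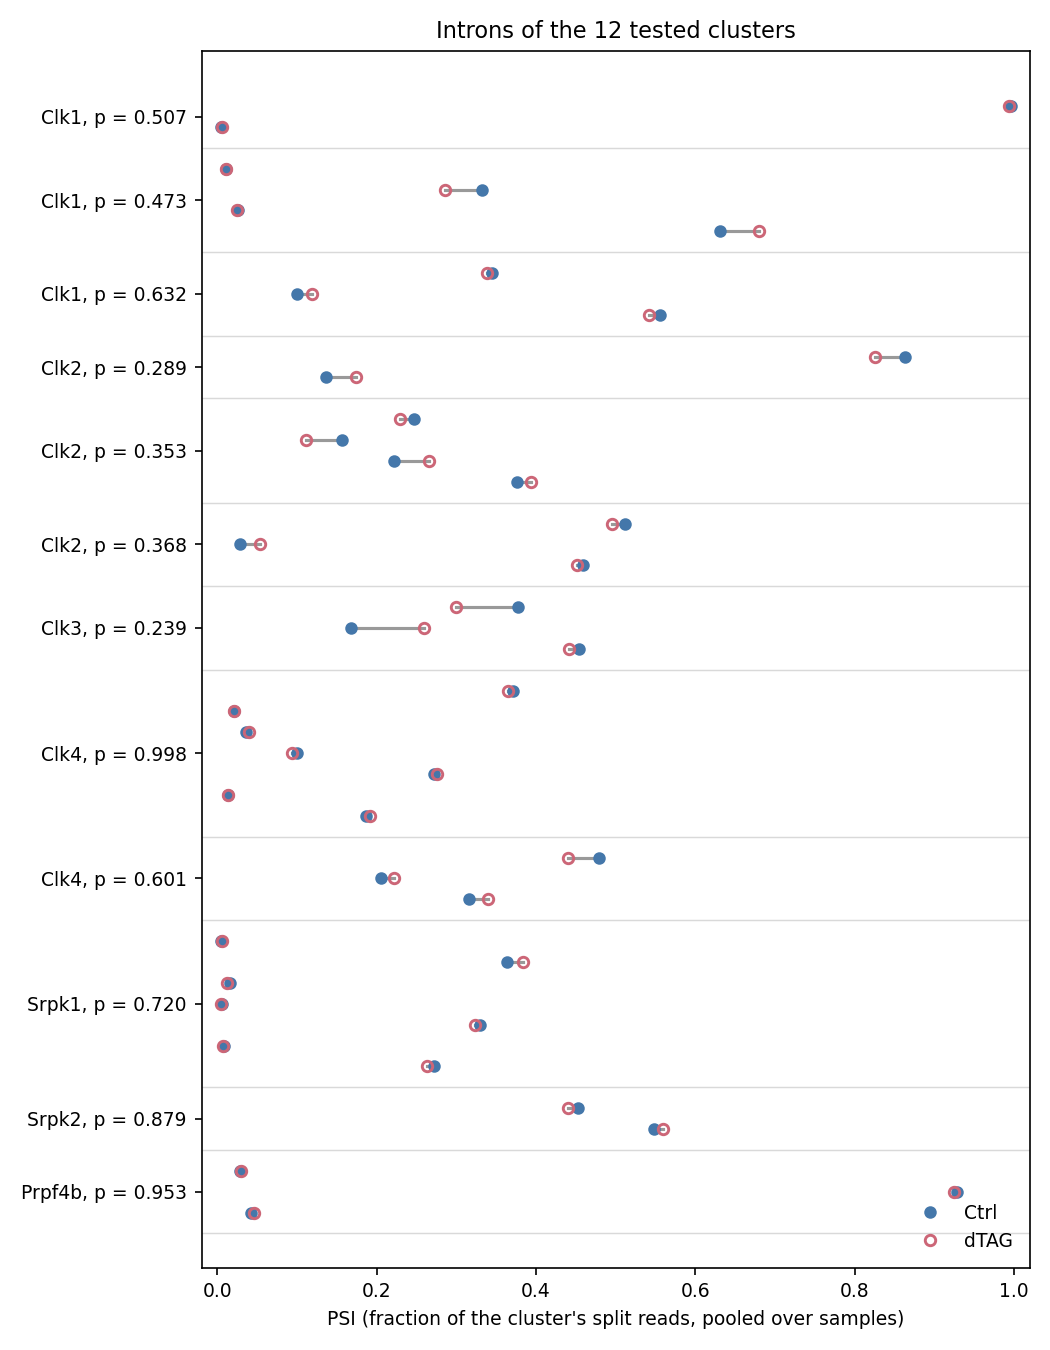
PSI (x-axis, fraction of the split reads of a cluster, pooled over the samples of a group) of all 43 introns, grouped by cluster (y-axis, with its p-value), in Ctrl (filled blue) and dTAG (open red). Most pairs overlap, and the widest gaps are in the *Clk3* cluster, at 0.0917 and -0.0789.

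Over the 12 clusters, the number with a p-value of at most 0.05 was 0, against 497 of all 7263 (6.84%). The number with an adjusted p under 0.05 was 0 (background 0.702%) and under 0.2 it was 0 (background 1.58%). The p-values ran from 0.239 to 0.998 with a median of 0.554, and the median over all tested clusters was 0.497. No cluster had a largest absolute deltaPSI of at least 0.1 (background 4.63%), and 1, that of *Clk3*, had one of at least 0.05 (background 19.8%). The median of the largest absolute deltaPSI was 0.0223, beside 0.0214 over all tested clusters. Of the 43 introns, 22 (51.2%) differed by less than 0.01 between Ctrl and dTAG and 41 (95.3%) by less than 0.05, compared with 41.3% and 87.6% of all introns. A change in splicing of these kinases was therefore not detected at the depth of these data, and without a replicate error for PSI no upper limit on it can be given.

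**Figure D5:**
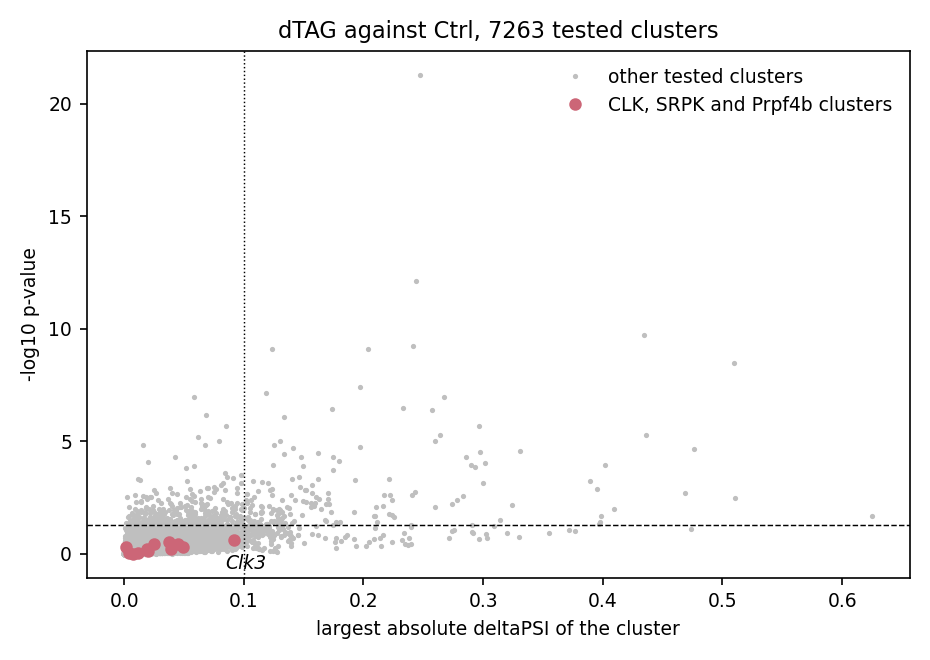
Minus log10 of the p-value (y-axis) against the largest absolute deltaPSI (x-axis) of 7263 tested clusters, with the 12 kinase clusters in red, the dashed line at a p-value of 0.05 and the dotted line at a deltaPSI of 0.1. All 12 lie below the dashed line and left of the dotted line, and *Clk3* is the red point farthest to the right.

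The motif GGACT, a common core of m6A sites, was searched on the transcribed strand in 501 bases around the centre of each cassette exon. It was found in the windows of exon 4 of *Clk1* and *Clk4* (1 match each) and *Clk2* (2 matches), and there was no match for *Clk3*. It was also found around exon 7 of *Clk1* (2 matches) and not around exon 7 of *Clk2*, the *Prpf4b* cassette or the *Srpk1* exons. Of the 2411 cassette clusters, 32.9% held at least 1 match in the window. GGACT is 1 form of DRACH, the wider consensus that the authors cite for m6A sites, and the other forms were not searched. A window without GGACT can therefore still hold an m6A site, and m6A itself was not analysed here.

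Among the SR proteins, the main substrates of these kinases, 9 of 11 listed genes had tested clusters, and 2 of their 18 clusters had a p-value of at most 0.05 (11.1%, beside 6.84% of all tested clusters), in *Srsf6* and *Srsf5*. An intron of *Srsf6* was at 0.281 in Ctrl and 0.323 in dTAG (chi-square p = 0.0139, adjusted p = 0.437, Benjamini-Hochberg), and an intron of *Srsf5* at 0.140 and 0.163 (chi-square p = 0.0343, adjusted p = 0.643, same adjustment). None of the 18 clusters had an adjusted p under 0.05. The median of the largest absolute deltaPSI was 0.0218, beside 0.0214 over all tested clusters.

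Of 25 other SR-related factors 21 had tested clusters, and 6 of 61 clusters had a p-value of at most 0.05 (9.84%, beside 6.84% of all tested clusters), with 3 at an adjusted p under 0.05 (0.702% of all tested clusters). These 3 were in *Acin1* and *Thrap3*. This list, like the others, was chosen with earlier results of these data known, so its shares are no independent test. *Acin1*, a partner of the exon junction complex, used an intron at chr14:54648131-54649531 at 0.0782 in Ctrl and 0.0164 in dTAG, in a cluster that passed the test (chi-square test, adjusted p = 0.00213, Benjamini-Hochberg). *Thrap3*, an SR-related protein of nuclear speckles, used an intron at chr4:126171882-126173443 at 0.842 and 0.708, also in a cluster that passed (chi-square test, adjusted p = 0.00783, same adjustment). *Prpf3*, a tri-snRNP protein, had an intron at 0.989 and 0.965 (chi-square test, adjusted p = 0.389), and *Srrm2*, a speckle scaffold, one at 0.976 and 0.959 (chi-square test, adjusted p = 0.614). The median of the largest absolute deltaPSI on this list was 0.0160.

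Of 21 other kinases and related enzymes linked to splicing 9 had tested clusters, and 2 of 21 clusters had a p-value of at most 0.05 (9.52%, beside 6.84% of all tested clusters). *Cdk13*, which phosphorylates RNA polymerase II, had an intron at 0.890 in Ctrl and 0.939 in dTAG (chi-square p = 0.0399, adjusted p = 0.682, Benjamini-Hochberg). *Cdk11b*, a kinase that acts on the spliceosome, had one at 0.177 and 0.105 (chi-square p = 0.0437, adjusted p = 0.696, same adjustment). Of 15 phosphatase, import and chaperone genes 10 had tested clusters, and 2 of 24 clusters had a p-value of at most 0.05 (8.33%, beside the same 6.84%), in *Hsp90ab1*, a chaperone, and *Ppp1r8*, a nuclear regulator of protein phosphatase 1. Their introns were at 0.997 and 0.994 (chi-square test, adjusted p = 0.194, Benjamini-Hochberg) and at 0.932 and 0.953 (chi-square test, adjusted p = 0.723, same adjustment). On neither list was an adjusted p under 0.05, and the medians of the largest absolute deltaPSI were 0.0193 and 0.0147.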

How the data were processed

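The authors aligned stranded 4sU-seq reads to mm10 with STAR 2.5.2b, per the labels, keeping uniquely mapped reads, and tested Ctrl against dTAG with LeafCutter on clusters with at least 30 split reads, both clones pooled. The deposited tables hold, per cluster, a log-likelihood ratio score with its degrees of freedom and, per intron, a fitted PSI per condition as a fraction. Depth per sample is unknown, so no interval or floor was computed. The deposited columns of effects, differences and p-values, the authors' own comparisons, were not used.

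P-values were computed here as the chi-square tail of 2 times the deposited score and adjusted by Benjamini-Hochberg over the 7263 tested clusters. DeltaPSI was computed from the deposited fractions. The deposited positions are the exon bases beside each intron (99.9% of introns have splice motifs 1 base inside them), so introns are given without these bases, 1-based. Sequence came from GRCm38.p6 and annotation from GENCODE vM21 and RefSeq; 35 of the 43 introns were in GENCODE and 34 in RefSeq. Reading frames were read from the annotated start codon, and exons were aligned globally. A cassette is an intron with 2 introns of its cluster that share its ends and do not overlap.

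The genes, lists and tests were chosen with earlier results of these data known. All clusters of the 7 genes are named; of other lists the genes with a p-value of at most 0.05, up to 4 by smallest p, and *Mettl3*. The code for p-values, their adjustment and cassette inclusion was tested on simulated data. Unchanged scores were drawn from the chi-square distribution that the test assumes, so this checks the code and not the test. The other steps were not tested in this way. Alternatives were other thresholds, adjustments, gene assignment, a PSI filter of 0.05, log2 ratios with pseudocounts of 0.01 and 0.001, and single junctions for inclusion. Python 3.11.15, numpy 2.4.6, scipy 1.17.1, pandas 2.3.3, pysam 0.24.0, Biopython 1.88, matplotlib 3.10.9 and samtools 1.23.1 were used.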

Additional observations from a re-analysis of the deposited data

How the results depend on the processing

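The number of kinase clusters with a p-value of at most 0.05 was also 0 at 0.01 and at 0.1, and the number with an adjusted p under 0.05 was 0 under Benjamini-Yekutieli, Bonferroni, Benjamini-Hochberg over clusters with 1 gene symbol, and a threshold of 0.2. The lowest adjusted p under any of these was 0.941. Most of these settings could not have changed a count of 0: a stricter threshold, Benjamini-Yekutieli and Bonferroni can only remove calls, and all 12 clusters have 1 gene symbol. The looser thresholds, a p-value of at most 0.1 and an adjusted p under 0.2, could have added calls and added none. With a threshold of 0.05 in place of 0.1 on the largest absolute deltaPSI the count was 1 (*Clk3*) in place of 0. Of 24 inclusion differences formed from a single junction, 2 changed sign, both from the downstream junction alone: exon 7 of *Clk1* at -0.00553 (0.00364 from both junctions) and the 59-nt exon of *Clk4* at 0.00309 (-0.00369 from both junctions). The cause was not tested. The log2 ratio of 2 PSI values has the sign of their difference by construction.

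No paired analysis was possible because the tables hold 1 pooled value per condition and no value per sample, so the replicate numbers, the clones and leaving out single replicates could not be used. The depth behind a PSI is unknown.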
